A study of Mus musculus with 2 samples.

Results

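CpG islands inside gene bodies are stretches of CpG-rich DNA that lie within a gene but away from any promoter. They were found here by sequence in the mouse genome (GRCm38, the same assembly as mm10) from 3 criteria, a length of 200 bp or more, a GC content of 50% or more, and CpGs at 0.6 or more of the number that base composition predicts. An island counted as a gene-body island where it lay on an autosome, overlapped an annotated gene and was more than 2 kb from every annotated transcription start site (TSS). Of 30043 such islands by position, 8298 (27.6%) held at least 5 usable cytosines and make up the set described below. They stand among 30762 measured autosomal CpG islands, of which 16173 lay within 2 kb of a TSS (promoter islands) and 6291 were intergenic.

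Methylation was measured by reduced representation bisulphite sequencing (RRBS), in which DNA is cut at MspI (CCGG) and TaqI (TCGA) sites, fragments are selected by size, and bisulphite turns unmethylated cytosines into uracil. The cells were C3H mouse myoblasts that had been differentiated into myotubes, the multinucleate cells that precede muscle fibres. They received either a control siRNA (siCon) or one directed at H19, a long non-coding RNA (siH19), and DNA was taken 48 h later, with both groups otherwise handled alike. There was 1 library per group, so each comparison of siH19 with siCon is a comparison of 2 libraries, without replicates and without an estimate of how much 2 cultures of one kind differ. The files hold DNA methylation only, so neither the fall of H19 nor the identity of the myotubes was checked here.

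Most CpG islands sit at promoters, where they are normally free of methylation. Islands within genes, also called orphan or intragenic islands, behave less uniformly. Some act as alternative promoters or enhancers and remain unmethylated, whereas others are methylated together with the transcribed gene around them. DNMT3B is one of the enzymes that place methylation in gene bodies, and the study asked whether H19 acts on this methylation through S-adenosylhomocysteine hydrolase.

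The siCon library covered 5453019 CpG cytosines with 104999613 reads summed over cytosines, and the siH19 library 5266846 cytosines with 106372792. At least 5 reads in both libraries were present at 3413804 cytosines, of which 1850635 lay outside MspI and TaqI sites and were used. A gene-body island held a median of 10 such cytosines, with 227 reads in siCon and 231 in siH19. Reads of islands, here and below, are also sums over cytosines, so a read that covers several is counted at each. Methylation level is the percentage of reads that were methylated, averaged over the cytosines of an island with the same weights in both libraries, and is given with a 95% Wilson interval. All intervals take the reads at each cytosine as independent and hold no spread between cultures. Neighbouring cytosines share reads and PCR copies cannot be recognised, so intervals, standard errors and p values of islands can be too small even for counting error.

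The sequences of 7 gene-body islands are printed in full, from the plus strand of GRCm38, because the descriptions that follow turn on them. Capitals mark the CpGs that were measured with at least 5 reads in both libraries outside restriction sites. The islands of Nctc1 and Cdt1 are shown because both genes were followed up by the study. Those of Tbc1d16 and Mef2b are among the islands that differed most from the DNA beside them, the first being unmethylated in methylated surroundings and the second the opposite. Those of Myrip, Auts2 and Lrp3 were higher in siH19 than in siCon.
Nctc1, chr7:142551061-142551345: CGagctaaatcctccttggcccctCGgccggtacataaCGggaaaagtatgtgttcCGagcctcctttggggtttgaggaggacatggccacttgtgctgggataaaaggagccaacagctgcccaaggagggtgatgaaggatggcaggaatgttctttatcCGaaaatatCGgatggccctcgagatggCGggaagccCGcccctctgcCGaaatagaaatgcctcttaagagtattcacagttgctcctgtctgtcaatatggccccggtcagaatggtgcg
Cdt1, chr8:122570147-122570404: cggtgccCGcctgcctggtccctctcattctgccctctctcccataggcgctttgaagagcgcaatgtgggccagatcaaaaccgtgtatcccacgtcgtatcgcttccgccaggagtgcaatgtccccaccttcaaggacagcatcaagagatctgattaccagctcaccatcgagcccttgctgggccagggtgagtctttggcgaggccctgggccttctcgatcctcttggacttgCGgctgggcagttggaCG
Tbc1d16, chr11:119215358-119215641: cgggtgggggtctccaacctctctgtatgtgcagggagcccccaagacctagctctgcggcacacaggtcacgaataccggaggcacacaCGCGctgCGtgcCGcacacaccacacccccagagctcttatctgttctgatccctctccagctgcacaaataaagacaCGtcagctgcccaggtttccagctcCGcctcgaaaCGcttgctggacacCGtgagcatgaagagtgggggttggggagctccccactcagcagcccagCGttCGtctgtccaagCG
Mef2b, chr8:70165032-70165292: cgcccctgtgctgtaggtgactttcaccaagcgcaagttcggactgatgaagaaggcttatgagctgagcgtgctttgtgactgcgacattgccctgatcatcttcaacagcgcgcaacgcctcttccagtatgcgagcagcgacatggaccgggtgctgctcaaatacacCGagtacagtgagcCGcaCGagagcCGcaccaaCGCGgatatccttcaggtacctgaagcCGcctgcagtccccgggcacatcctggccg
Myrip, chr9:120432798-120433034: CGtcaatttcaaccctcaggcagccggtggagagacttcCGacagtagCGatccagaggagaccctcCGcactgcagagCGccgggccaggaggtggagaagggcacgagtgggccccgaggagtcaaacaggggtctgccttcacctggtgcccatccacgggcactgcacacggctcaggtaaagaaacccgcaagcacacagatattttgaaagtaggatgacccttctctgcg
Auts2, chr5:131645899-131646137: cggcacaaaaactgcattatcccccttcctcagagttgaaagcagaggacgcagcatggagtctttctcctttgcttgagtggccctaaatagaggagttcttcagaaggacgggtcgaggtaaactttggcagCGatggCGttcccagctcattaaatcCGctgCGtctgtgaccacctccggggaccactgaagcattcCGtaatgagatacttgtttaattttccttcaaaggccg
Lrp3, chr7:35202463-35202717: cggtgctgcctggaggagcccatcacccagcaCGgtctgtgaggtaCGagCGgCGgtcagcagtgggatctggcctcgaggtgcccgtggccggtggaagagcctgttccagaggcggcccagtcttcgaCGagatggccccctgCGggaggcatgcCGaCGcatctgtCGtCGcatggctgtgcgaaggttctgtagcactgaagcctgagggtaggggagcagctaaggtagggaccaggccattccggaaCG

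Gene-body islands were mostly methylated in myotubes, unlike promoter islands. Their median level was 73.3% in siCon and 73.2% in siH19, against 2.53% and 2.61% for promoter islands and 56.9% and 57.3% for intergenic islands. The middle 50% of gene-body islands ran from 44.2% to 91.5% in siCon. In both libraries 932 of them (11.2%) were below 20% and are called low, 3268 (39.4%) were above 80% and are called high, and the other 4098 are called intermediate. Fewer were low when restriction-site cytosines were kept, as given at the end. Among promoter islands 71.3% were low and 6.46% high, and among intergenic islands 14.5% were low and 13.3% high.

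**Figure D1:**
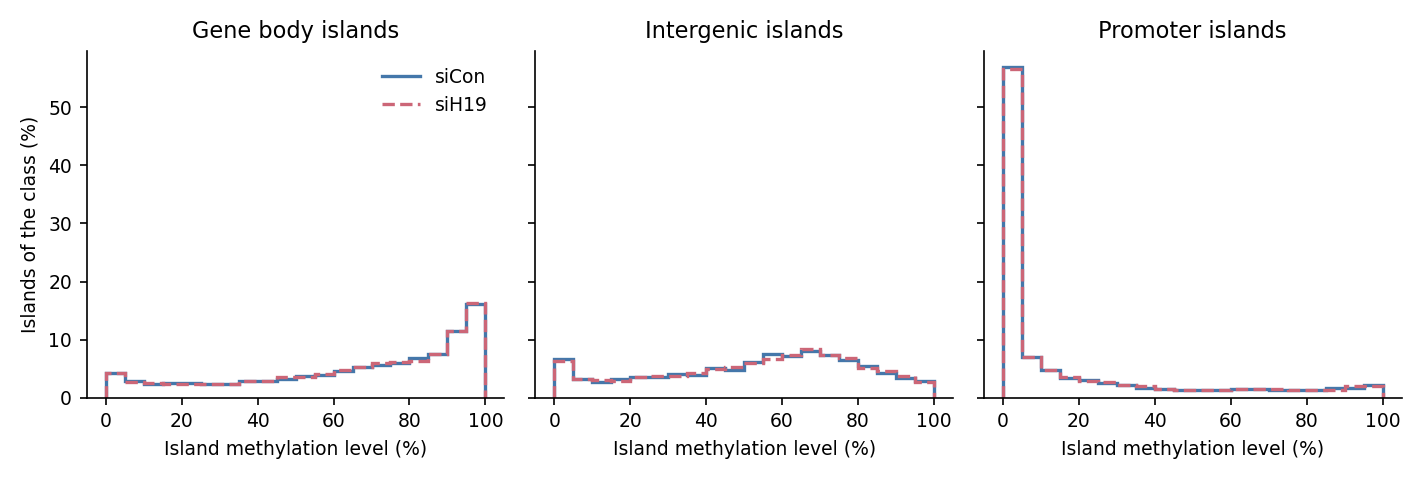
Share of islands (percent, vertical axis) by methylation level (percent, horizontal axis) for gene-body, intergenic and promoter CpG islands, 1 panel each, with siCon and siH19 as lines. Gene-body islands, with a median of 73.3% in siCon, pile up at the methylated end, whereas promoter islands, with a median of 2.53%, sit at the unmethylated end.

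The level of a gene-body island went with its place in the gene. The 4136 islands that touched coding exons had a median of 83.0% in both libraries, and 52.1% of them were high. Touching means an overlap of any base, so the measured cytosines of such an island can lie outside the exon. The 3806 islands lying wholly in introns had a median of 63.7% in siCon and 64.2% in siH19, and 26.2% of them were high. Low islands were more frequent in introns (14.6%) than in coding exons (7.40%), and most frequent, at 24.4%, among the 180 islands in other exons, which include exons of non-coding genes. The 176 islands in 3' untranslated regions had medians of 76.6% and 76.5%.

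Levels were also somewhat higher further along the host gene, with a Spearman correlation of position and level of 0.157 over all islands, 0.0389 over those in coding exons and 0.121 over those in introns. When each gene was cut into 5 equal parts from its start to its end, the median in siCon was 58.8% in the first part and then 67.3%, 72.7%, 74.8% and 79.8% in the following ones. Low islands made up 20.8% of the first part and 8.37% of the last. Levels also differed by kind of host, in that 7535 islands in protein-coding genes had a median of 75.2% in siCon, whereas 673 in long non-coding RNA genes had a median of 54.98% and 80 in pseudogenes 60.8%. These are descriptions of the islands of 2 libraries, and no test was made between the classes.

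**Figure D2:**
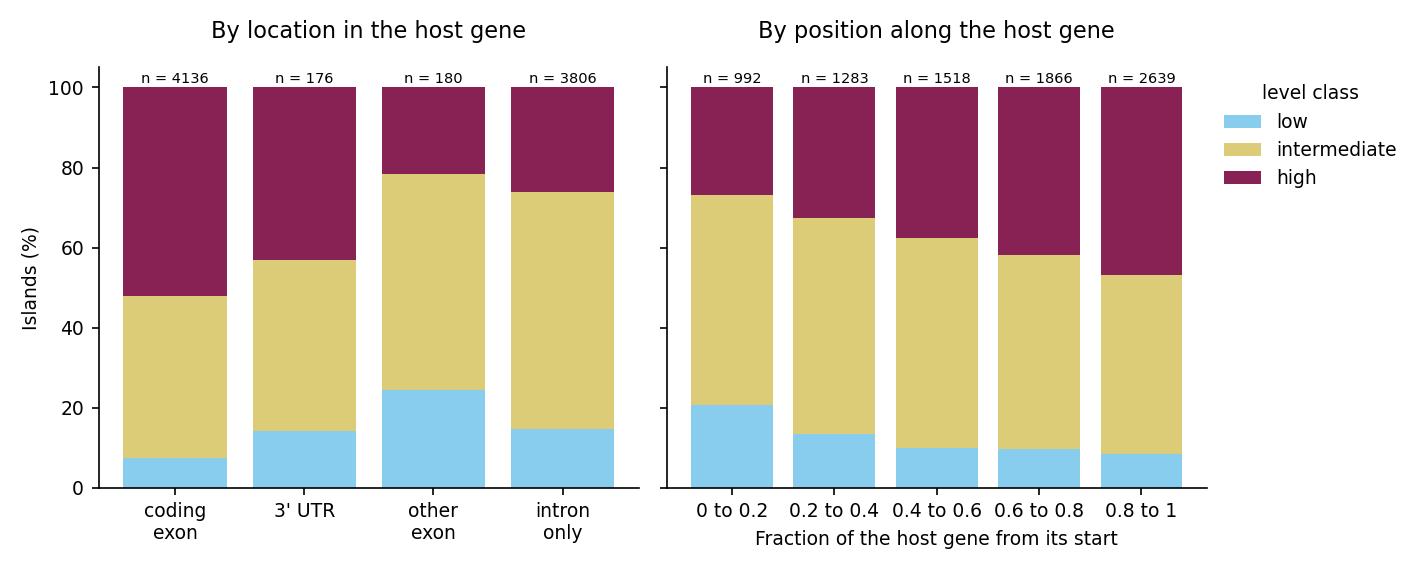
Percent of gene-body islands (vertical axis) in the low, intermediate and high classes, by part of the gene and by position along the host gene in 5 equal parts from start to end (horizontal axis). The high share is 52.1% in coding exons against 26.2% in introns, and the low share falls from 20.8% in the first part to 8.37% in the last.

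Sequence features of the islands followed their level only weakly. Across the 8298 islands the Spearman correlation with the mean level was -0.175 for GC content, -0.159 for CpGs per 100 bp, -0.132 for length, 0.153 for the observed to expected ratio of TpG and -0.03 for that of CpG. These islands share 2 libraries, and the number of usable cytosines varies with length and base composition. The extremes were plainer. The 409 islands of at least 1000 bp had a median of 52.7% in siCon and 27.9% of them were low, and the 947 islands with a GC content of at least 65% had a median of 56.7% with 22.4% low. The 1421 islands of which at least 50% is soft-masked repeat were seldom at either end, with 1.97% low and 15.8% high, around a median of 65.8%.

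The annotation used for start sites was the basic set of GENCODE, and the comprehensive set lists more of them. By the comprehensive set, 267 low islands (28.6%) lay within 2 kb of a TSS, compared with 1588 (19.1%) of all gene-body islands, 13.7% of the intermediate and 23.3% of the high ones. The low islands had a median length of 404.5 bp, and 315 of them were below 5% in both libraries. At the other end, 1089 high islands were above 95% in both libraries.

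The low islands with the most cytosines were deep and close to 0. The Lncppara island (intron, chr15:85670230-85672242) had 235 cytosines and was methylated at 0.461% (0.347 to 0.613) in siCon and 0.425% (0.324 to 0.557) in siH19. The island in an intron of Zmiz1, a transcriptional coactivator of the PIAS family (chr14:25606733-25608391), stood at 1.29% (1.06 to 1.56) and 0.742% (0.592 to 0.929). That in the coding sequence of Prr7 (chr13:55471339-55473160) stood at 1.48% and 1.49%. All 3 were nearly free of methylation, but their flanks differed, with 0.697% and 4.13% beside Lncppara, 56.6% and 50.6% beside Zmiz1, and 74.4% and 74.9% beside Prr7. The Zfp771 island, in the coding exon of a zinc finger gene, was slightly higher at 6.49% and 7.63%, and that of the deubiquitinase gene Otud7a higher again at 16.1% and 17.2%.

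Intermediate islands of similar size were equally well measured. In Sp8, a zinc finger factor of limb development, a coding-exon island of 229 cytosines (chr12:118848370-118850032) had 34.6% (33.5 to 35.8) in siCon and 35.5% (34.4 to 36.5) in siH19. An intronic island of Lin28b, which encodes an RNA-binding protein that blocks let-7 processing, had 42.3% (40.8 to 43.8) and 41.0% (39.5 to 42.4) over 194 cytosines. The island of Skor2, a SKI-family corepressor gene, had 38.9% and 40.6%, and that of Cilp2 74.5% and 75.5%. All 4 lay far from both 0 and 100%, and the 2 libraries differed by less than 2 points in each. The fifth of these islands, in C1qtnf4, is described with its cytosine.

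The high islands with the most cytosines all lay in coding exons of genes whose promoter islands were less methylated. Zfp316, a zinc finger gene, had 95.3% (94.6 to 96.0) in siCon and 95.9% (95.3 to 96.4) in siH19 over 239 cytosines (chr5:143252960-143255417), while its promoter islands were at 0.972% and 1.28%. Dact3, which encodes an inhibitor of Wnt signalling, had 90.7% and 91.4% in the gene body and 3.22% and 2.48% at the promoter. Sema6c, a semaphorin, had 93.5% and 94.0% against 0.777% and 0.608%. The islands of Zfp697 (90.6% and 91.8%) and of the actin-binding protein gene Shroom3 (92.4% and 91.2%) were alike, although the Shroom3 promoter islands were at 21.3% and 23.7%.

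This contrast with the promoter was general. A measured promoter island of the same gene was available for 5673 gene-body islands in 3305 genes. The gene-body island was at least 20 points more methylated in both libraries in 4504 of the pairs (79.4%) and at least 20 points less in 118. Where the promoter was low (4571 islands), the gene-body island was high in 2435, intermediate in 1722 and low in 414. The reverse arrangement, a low gene-body island with a promoter that was not low, occurred 126 times.

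Several islands of one gene could differ widely. The set lay in 5068 host genes, of which 3413 held 1 island and 1655 held at least 2, and within the latter the median range between the lowest and highest island was 23.9 points. In 154 genes low and high islands stood side by side, in 361 all islands were high and in 39 all were low. Fat1, a giant cadherin, had 12 coding-exon islands that were all high, from 84.8% to 100% in siCon and from 87.4% to 98.9% in siH19. Ttn, which encodes the sarcomeric spring protein titin, had 15 coding-exon islands from 43.2% to 93.6% in siCon (median 80.3%) and from 36.8% to 95.9% in siH19 (median 78.8%), none of them low.

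Other genes also held low islands, and Trio and Zfhx3 held only 1 each. Of the 13 islands of Rbfox3, a neuronal splicing factor, 10 were low, with a median of 8.79% in siCon and 9.93% in siH19. Trio, a guanine nucleotide exchange factor, had 10 high islands of 12 and 1 low island at 1.13% and 1.72%. Zfhx3, a homeobox and zinc finger factor, had 15 islands with a median of 95.6% and 97.2%, yet its 147-cytosine island (chr8:108703648-108705286) was at 1.03% (0.739 to 1.45) and 0.374% (0.209 to 0.668). Camta1 and Wwox, 2 very long genes, spread over most of the scale, from 2.30% to 95.7% and from 11.1% to 91.2% in siCon. These 7 genes were picked for their number and spread of islands after their values had been seen.

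Gene-body islands were then set beside the DNA around them, that is, cytosines outside any island within 2 kb of the island edges and more than 1 kb from a TSS. Such flanks were measured for 2690 islands. The islands had a median of 76.2% in both libraries and the flanks 70.1% in siCon and 71.02% in siH19, with a median island minus flank difference of 2.34 and 2.17 points. The differences went both ways, with the interval of island minus flank below 0 in both libraries at 707 islands and above 0 at 952, together 61.7% of them. In both libraries 427 (15.9%) were at least 20 points below the flank and 476 (17.7%) at least 20 points above it. Islands below their flanks made up 21.9% of the 918 intronic and 12.3% of the 1635 coding-exon islands, and islands above made up 17.8% of each.

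**Figure D3:**
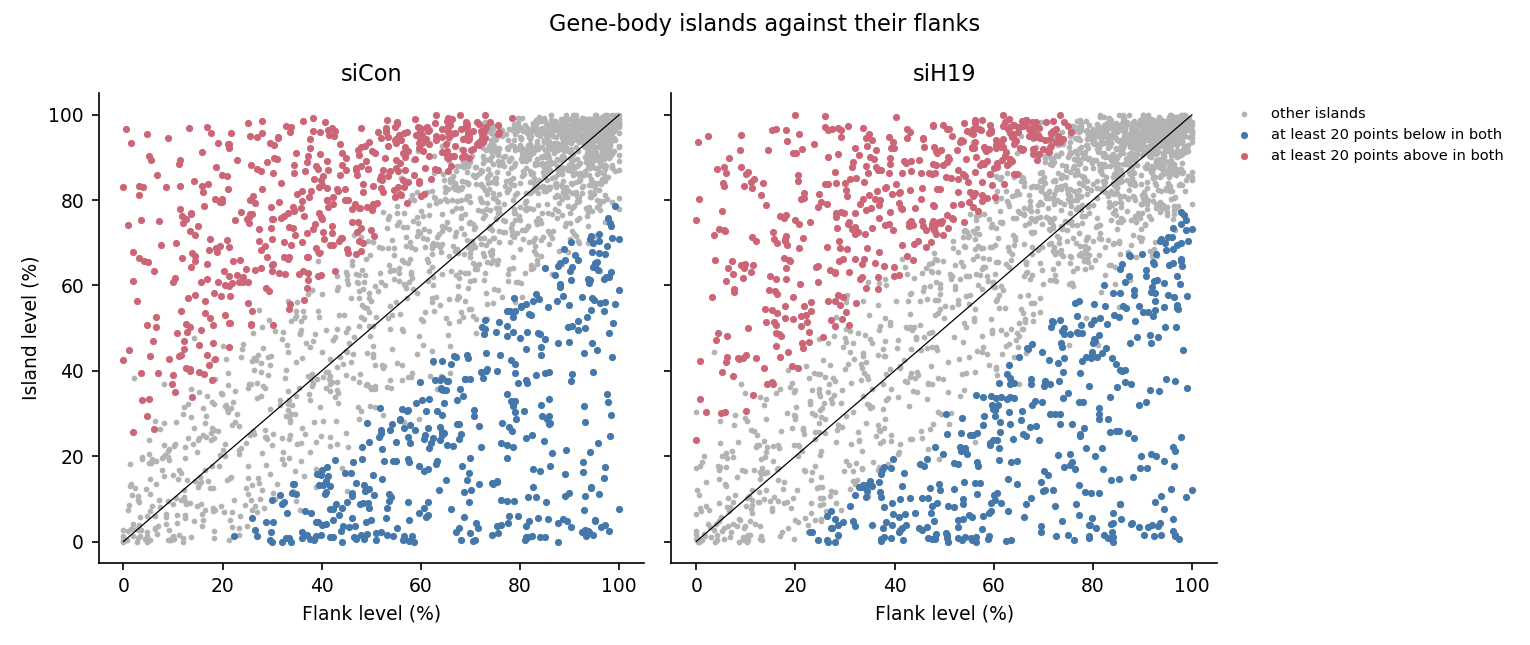
Methylation level of each gene-body island (percent, vertical axis) against that of its flanks within 2 kb (percent, horizontal axis), in siCon and in siH19, with colours for islands at least 20 points from their flanks in both libraries. The line marks equal levels, and of the 2690 islands 427 lie at least 20 points below it and 476 at least 20 points above it.

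The islands furthest below their flanks were unmethylated pockets in methylated surroundings. Some lay just past the 2 kb limit, at 2124 bp from a TSS in Ngfr and 2374 bp in Meis2. The others lay at 3351 bp (Polr3gl), 4519 bp (Tbc1d16) and 6807 bp (Ano8). The promoter islands of these host genes were low too, at most 5.94% in either library (Ngfr). In Meis2, a TALE homeobox gene, an intronic island (chr2:116061821-116062138) had 2.49% (1.36 to 4.51) in siCon and 1.24% (0.342 to 4.39) in siH19, and its flanks had 93.8% and 92.4%. The island of Tbc1d16, a Rab GTPase-activating protein gene, had 2.67% (1.71 to 4.15) and 4.38% (2.94 to 6.48), and its flanks 93.0% and 93.5%. Among its 22 cytosines, at the CpGs in capitals above, the highest was 25% in siCon and 13.2% in siH19. Ngfr, the p75 neurotrophin receptor gene, had an intronic island at 5.19% and 4.21% in flanks of 88.7% and 87.8%. Polr3gl, which encodes an RNA polymerase III subunit, had 0 of 262 methylated reads in siCon, summed over 12 cytosines. Were those reads independent, a level of up to 1.15% (3 reads) would be allowed. The island had 1.61% in siH19, with flanks at 87.6% and 90.3%. Ano8 had 1.09% and 0.720%, with flanks at 81.3% and 83.0%. The Polr3gl island also overlaps Gm16253, and that of Ano8 overlaps Dda1.

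The reverse was seen at Maml3, Mef2b and Glis1. The intronic island of Maml3, a Notch coactivator (chr3:52044653-52045198), had 93.5% (90.9 to 95.4) in siCon and 95.1% (93.0 to 96.5) in siH19, and its flanks 1.56% and 2.32%. The island of Mef2b, which encodes a MEF2-family transcription factor, had 90.4% (87.3 to 92.9) and 87.9% (85.0 to 90.3) with flanks at 5.19% and 5.55%. Its first measured CpG, at base 172 of the printed sequence, was near 50%, with 55.2% and 51.9% on the plus strand and 54.5% and 44.8% on the minus strand. Further into the same island, the CpG at base 197 had 100% on both strands in siCon and 100% and 96.6% in siH19. Glis1, a Krüppel-like zinc finger gene, had 83.1% and 87.3% with flanks at 3.97% and 4.14%. At all 3 genes the promoter island was also low, at most 2.69% in either library.

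Of the 6 genes that the study followed up, 4 gene-body islands existed by position and 2 were measured, and neither passed the test between the libraries. The study reported higher methylation of short regions in both genes after H19 knockdown. It found them in its genome-wide bisulphite sequencing, the source of the libraries used here, and measured them again by methylation-specific PCR. In the PCR, added knockdown of the hydrolase or of DNMT3B wholly or partly undid the increase. The values below are means of islands without restriction-site cytosines, and whether they include those regions was not tested. Nctc1 is a long non-coding RNA gene of the Igf2-H19 domain, and the study places the core muscle enhancer in its second intron. The Nctc1 island lies in that intron, 7251 bp downstream of the start site, although whether it overlaps the enhancer was not tested. It was low, with 4.61% (2.96 to 7.09) in siCon and 4.42% (2.77 to 6.96) in siH19, from 418 and 396 reads summed over 18 cytosines. Its difference was -0.19 ± 1.47 points (standard error) by the 2-sided Mantel-Haenszel chi-square test over its cytosines (p adjusted over all islands, adjusted p = 0.972). Its 18 cytosines ran from 0% to 22.2% in siCon and from 0% to 15.6% in siH19, with 7 higher and 9 lower in siH19. The Cdt1 island overlaps the coding sequence of a gene for DNA replication licensing and was high, with 97.2% (91.5 to 99.1) and 99.2% (93.9 to 99.9). Its difference was 2.01 ± 2.01 points (chi-square test, adjusted p = 0.705). Only 6 cytosines at 3 CpGs were measured in it, at bases 8, 241 and 257 of the printed sequence. Whether these CpGs are coding was not tested.

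Between siCon and siH19 the levels of gene-body islands lay close together. The 2 libraries had a Pearson correlation of 0.987 and a Spearman correlation of 0.979 over the 8298 islands, which share the libraries. The median absolute difference was 2.21 points, 6578 islands (79.3%) were within 5 points and 420 (5.06%) were at least 10 points apart. Of the islands, 4292 (51.7%) were higher and 3984 lower in siH19. In all, 7774 were in the same class in both libraries, and 0 went from below 20% to above 80% or back.

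Each island was tested with that 2-sided Mantel-Haenszel chi-square test, with Benjamini-Hochberg adjustment over all 30762 autosomal islands, and was called where the adjusted p was below 0.05 and the difference at least 10 points. By this rule 82 gene-body islands (0.988%) were called, against 0.93% of all autosomal islands. Of these, 44 (0.530%) were higher in siH19, against 0.588% of all islands, and 38 (0.458%) were lower, against 0.341%. Before the 10-point limit, 186 (2.24%) had an adjusted p below 0.05, against 4.45% of all islands, with 107 (1.29%) higher, against 2.84%, and 79 (0.952%) lower, against 1.61%. With the 10-point limit, the share called among gene-body islands was near that of all islands, which mixes unlike classes. It lay between 0.488% of promoter islands and 1.99% of intergenic islands. Without that limit, 1004 of 16173 promoter and 180 of 6291 intergenic islands had an adjusted p below 0.05. The higher ones gained 10.0 to 32.4 points, and the lower ones fell by 11.04 to 39.4 points. The test takes reads as independent. When only 1 cytosine was used for each restriction fragment and strand, 7 were called higher and 6 lower, and 0 of the 20 islands named next remained called. A test scaled by the variation between cytosines called 1 higher and 0 lower.

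**Figure D4:**
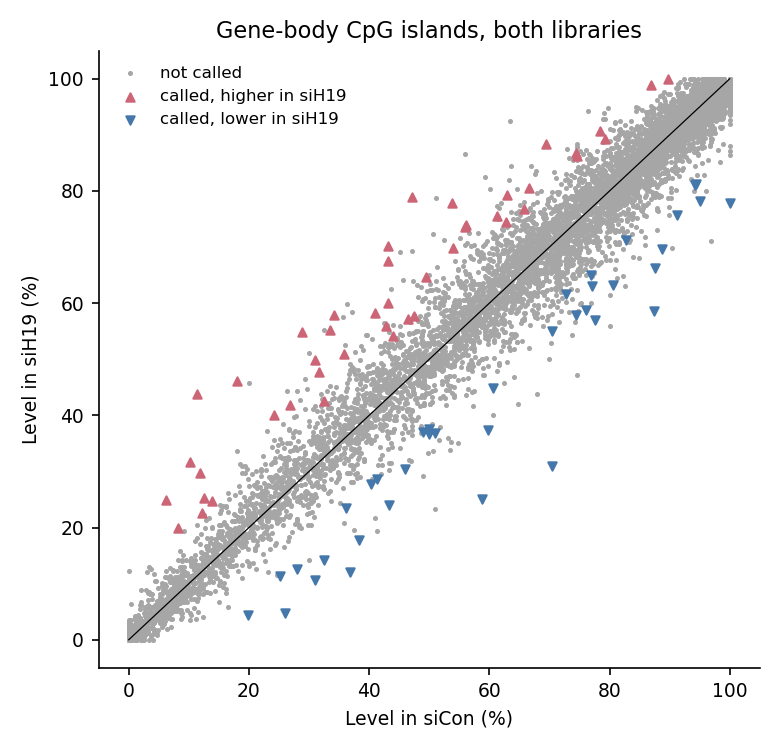
Methylation level of each of the 8298 gene-body islands in siH19 (percent, vertical axis) against siCon (percent, horizontal axis), with islands called higher and lower in colour. The cloud follows the diagonal (Pearson correlation 0.987), and the 44 higher and 38 lower islands lie off it.

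The calls came mainly from islands with few cytosines. Of islands with 5 to 9 cytosines 1.20% were called, of those with 10 to 19 1.11%, of those with 20 to 49 0.190%, and of the 345 with at least 50 none. Called islands had a median of 2 fragment and strand units and a span of 95.5 bp, compared with 3 units and 149 bp for all gene-body islands. Soft-masked repeats made up at least 50% of 25 called islands (30.5%), against 17.1% of all. The part of these features in the calls was not tested. Of the 70 called islands with cytosines on both strands, 65 moved in one direction on both. Calls were made on both strands together, so part of this agreement follows from the selection and it is no check on the calls.

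As a yardstick taken within each library, the plus and minus strands of the same CpGs were compared within a library at 3995 gene-body islands. By the same rule 131 of them (3.28%) were called between strands in siCon, against 2.19% of all islands so tested, and 103 (2.58%) in siH19, against 1.73%. Between the libraries only 27 (0.676%) of these islands were called. The median absolute difference was 2.55 points between the strands in siCon and 2.46 in siH19, and 1.63 between the libraries. Each strand holds only a part of an island's reads, so the sizes are not compared at equal depth. Of 33 islands called between strands in both libraries 29 had the same strand higher.

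The 10 islands with the largest gains, among called islands with at least 10 cytosines and one direction on both strands, lay in genes of varied kinds. In an intron of Chl1, a cell adhesion molecule of the L1 family (chr6:103581027-103582219), the level was 43.1% (32.5 to 54.3) in siCon and 67.5% (59.9 to 74.2) in siH19. These rest on 77 and 170 reads summed over 11 cytosines. The difference was 24.40 ± 6.30 points (chi-square test, adjusted p = 0.0107). This island is wholly soft-masked repeat. The Myrip island, in the coding sequence of a protein that links Rab27a to myosin, had 49.5% (42.2 to 56.7) and 64.6% (59.5 to 69.5), a difference of 15.17 ± 3.17 points (chi-square test, adjusted p = 0.000251).

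The printed Myrip sequence shows where that gain lay. The CpG at base 1 was low in both libraries, with 4.76% and 5.00% on the minus strand, and the CpG at base 68 was at 100% in both on each strand. The CpG at base 40 went from 0 of 20 reads, which allows a level of up to 15%, to 41.9% of 62 on the plus strand and from 30.0% to 65.5% on the minus strand. The CpG at base 49 went from 50% to 77.4% and from 70.0% to 86.2%. Within 68 bases of one island, levels thus ran from near 0 to 100%, and the largest difference between libraries was at base 40.

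Auts2 and Lrp3 gained over more of their CpGs. Both islands were chosen because they were called higher, and neighbouring cytosines share reads. Their counts of higher cytosines are therefore description, not separate support. Auts2 encodes a protein of neural development that takes part in a Polycomb complex, and its intronic island had 61.2% (55.2 to 66.99) in siCon and 75.5% (71.8 to 78.9) in siH19, a difference of 14.24 ± 3.45 points (chi-square test, adjusted p = 0.00205). All 10 of its cytosines were higher in siH19. At Lrp3, a gene of the LDL receptor family, the coding-exon island had 42.8% (38.1 to 47.6) and 55.9% (51.6 to 60.2), a difference of 13.11 ± 2.99 points (chi-square test, adjusted p = 0.00205), with 12 of 16 cytosines higher. The gain at Lrp3 was 4.74 points on the plus strand and 23.33 on the minus strand. A like imbalance was present at Btbd11, which went from 54.0% to 69.8% with 7.58 points on the plus strand and 22.49 on the minus strand.

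The other higher islands by this rule went from 33.5% to 55.2% in the long non-coding Gm12962, from 40.9% to 58.2% in Cnbd2, from 31.7% to 47.8% in the zinc finger gene Zfp536, from 24.2% to 40% in 5330417C22Rik and from 26.8% to 41.8% in Gm1123. Their adjusted p values lay between 0.00332 (Gm12962) and 0.0446 (Zfp536). The Cnbd2 island is shared with Gm14252. All 10 islands were intermediate in both libraries.

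The 10 islands with the largest losses included a muscle gene. Myo18b encodes an unconventional myosin needed for sarcomeres, and its intronic island (chr5:112848061-112848448) had 27.9% (22.8 to 33.7) in siCon and 12.7% (8.86 to 17.8) in siH19. The island had 288 and 222 reads summed over 11 cytosines. Its level differed by -15.24 ± 3.47 points (chi-square test, adjusted p = 0.00365). Its flanks stood at 22.6% and 25.4%. Il12rb1, an interleukin-12 receptor subunit gene, had 19.8% (13.2 to 28.5) and 4.46% (2.47 to 7.92) in a coding exon, a difference of -15.31 ± 4.18 points (chi-square test, adjusted p = 0.000377). Nearly all of this loss was on the plus strand, where the difference was -24.87 points, against -0.51 on the minus strand.

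The most even of the losses was at Dlgap3, which encodes a scaffold protein of synapses. Its coding-exon island (chr4:127214629-127215032) had 25 cytosines and went from 48.9% (43.5 to 54.3) to 37.0% (33.1 to 41.0), a difference of -11.91 ± 2.76 points (chi-square test, adjusted p = 0.00179), with -10.05 points on the plus strand and -13.87 on the minus strand. Its flanks were at 26.2% and 26.9%. Intronic islands fell from 77.1% to 63.1% in Pxk, from 40.3% to 27.7% in the calcium channel gene Cacna1e and from 49.9% to 37.5% in the homeobox gene Dmbx1. The remaining ones fell from 74.3% to 57.9% in Gm973, from 60.6% to 44.9% in 1700020G17Rik, from 25.1% to 11.4% in Gm35040 and from 94.4% to 81.3% in Gm32916. The islands of 1700020G17Rik and Gm32916 are 99.4% and 94.3% soft-masked, and that of Gm973 is shared with Gm28411.

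**Figure D5:**
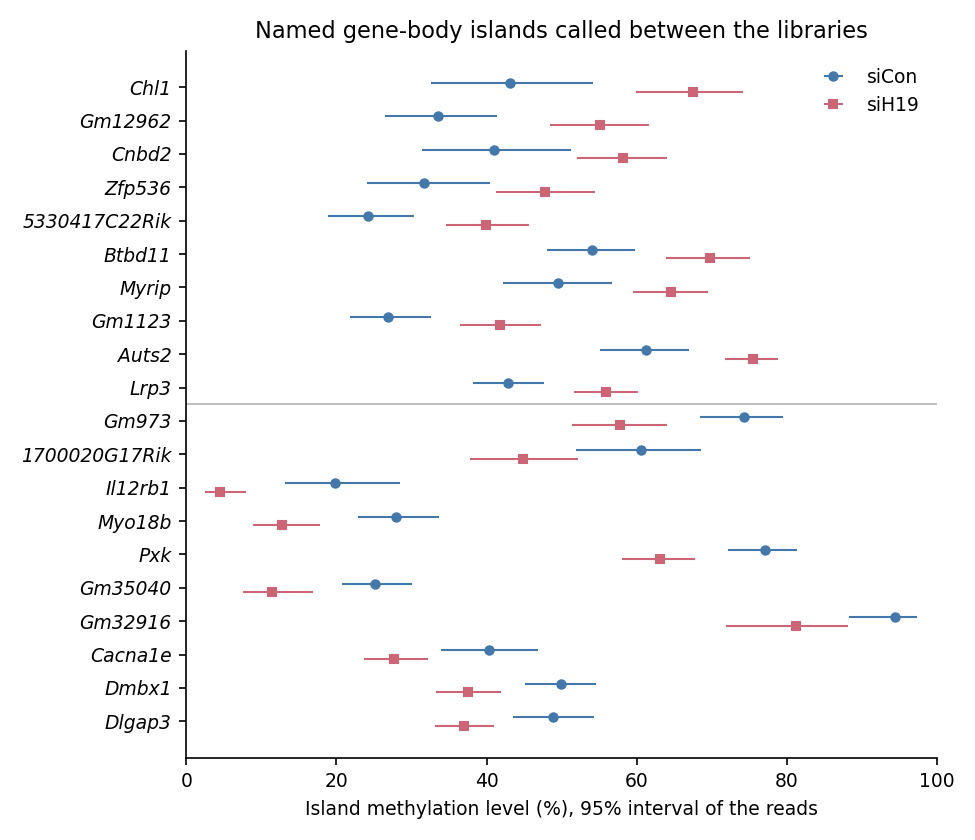
Methylation level (percent, horizontal axis) in siCon and siH19 of the 10 gene-body islands with the largest gains and the 10 with the largest losses by the naming rule (vertical axis, by host gene). Bars are 95% Wilson intervals that take reads as independent, with 1 library per group, and the differences run from 24.40 points at Chl1 to -16.49 at Gm973.

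By gene group, 0 to 4 islands were called and the classes differed in their mix. The groups below were lists of genes by function. Of 69 islands in 26 myogenic and sarcomere genes, 4 were low, 47 intermediate and 18 high, and 0 were called. An adjusted p below 0.05 without the 10-point limit was reached by 3 of them (4.35%), all higher in siH19. The share of all autosomal islands was 4.45%, with 2.84% higher, and that of gene-body islands 2.24%, with 1.29% higher. With only 3 islands, no difference between these shares was tested. Ryr1, the calcium release channel of muscle, had 66.2% (64.0 to 68.3) and 69.3% (67.5 to 71.1) over 130 cytosines (chi-square test, adjusted p = 0.165). Jph3, a junctophilin that ties the plasma membrane to the calcium store, went from 65.8% (63.7 to 67.9) to 73.4% (71.1 to 75.5), a difference of 7.50 ± 1.36 points (chi-square test, adjusted p = 2.92e-05), which is under the 10-point limit. Its paralogue Jph2 had 73.9% and 76.4% (chi-square test, adjusted p = 0.352). The islands of both Jph3 and Cdt1 also fall within the long readthrough transcript Gm20388.

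Imprinted genes, from which one parental copy is expressed, held 16 islands, of which 14 were intermediate, 2 high and 0 called. The intronic island of Igf2 had 34.0% (29.8 to 38.5) in siCon and 33.6% (30.3 to 37.1) in siH19, those of H13 67.7% and 67.4%, and those of Plagl1 79.6% and 78.7%. The Igf2 island overlaps its antisense gene Igf2os, and reads do not tell the genes apart.

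Genes of the methylation machinery itself were among the hosts. Of 10 islands in DNA methylation and methyl-cycle genes 5 were high, 5 intermediate and 0 called. Tet1, which encodes an enzyme that oxidises 5-methylcytosine, had an intronic island (chr10:62886150-62887677) at 21.4% (19.9 to 23.0) in siCon and 20.1% (18.7 to 21.5) in siH19, with flanks at 89.3% and 92.8%. A second Tet1 island had 24.3% and 26.3%. In contrast, the coding-exon island of its paralogue Tet3 had 97.5% and 99.0%, as did its flanks at 95.2% and 96.3%.

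Among 51 islands of histone methylation and Polycomb genes 33 were high, 6 low and 0 called. Cbx8 and Cbx6, both subunits of Polycomb complexes, lay at opposite ends. The island at the 3' end of Cbx8 had 5.22% and 6.78% with flanks at 85.7% and 84.2%, and the Cbx6 island had 95.4% and 95.6%. The coding-exon island of the histone methyltransferase gene Prdm2 was at 0.318% and 0.442%.

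Homeobox, Pax, Sox, Forkhead, T-box and GATA factor genes had the largest low share of the groups with more than 2 islands. Of their 189 islands 55 (29.1%), in 40 genes, were low, compared with 11.2% of all gene-body islands, and 52 were high. Of them 2 were called higher and 1 lower (1.59%, against 0.93% of all autosomal islands). Lhx5, a LIM-homeobox factor, had 11.97% and 10.7%, equal to its flanks at 12.2% and 10.7%, and Sox17, an endoderm factor, had 24.5% and 22.4%. Meis2 held both kinds of behaviour. Beside its island at 2.49% it had another intronic island that went from 74.4% (67.8 to 80.1) to 86.8% (80.7 to 91.2), a difference of 12.41 ± 3.72 points (chi-square test, adjusted p = 0.0272), with 34.80 points on the plus strand and 1.61 on the minus strand. Meis2 was singled out here after its values had been seen.

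Zinc finger genes leaned the other way, with 108 of 193 islands high and 20 low, 1 called higher and 1 lower (1.04%, against 0.93%). Channel genes were mostly intermediate, with 90 of 133, and 2 were called higher and 2 lower (3.01%, against 0.93% of all autosomal islands). The coding-exon island of Cacna1a, a neuronal calcium channel gene, had 19.4% and 20.8%, and those of the potassium channel genes Kcns1 and Kcnk15 had 40.9% and 41.9%, and 15.8% and 15.2%. Wnt and Notch pathway genes held 81 islands, 14 low and 40 high, with 0 called. Wnt3 (7.79% and 8.97%), the planar polarity cadherin gene Celsr3 (8.22% and 7.10%) and the Notch ligand gene Dll3 (19.2% and 19.1%) were their best covered and all low.

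Genes of the extracellular matrix were represented by 38 islands of collagen genes, of which 15 were high, 3 low and 0 called, and 58 of ADAMTS, laminin and fibrillin genes, of which 20 were high, 4 low and 1 called lower (1.72%, against 0.93%). Col8a2 had an intronic island at 9.59% and 11.7% between flanks at 78.7% and 78.4%, and another at 42.5% and 38.1%. Col6a6 had 77.4% and 73.4%. Adamtsl5 had 25.6% and 26.9%, and Ltbp4, which binds latent TGF-beta, 26.2% and 25.1%. The best covered island of the ADAMTS group, at 24.1% and 25.6%, is shared by Adamtsl1 and Sh3gl2. The clustered protocadherins had 2 islands, at 95.2% and 94.2%, and at 64.0% and 72.5%, that lie in overlapping Pcdha genes.

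At single cytosines the share that differed was likewise near that of all autosomal cytosines. The opposite strand of a changed cytosine moved the same way in 48.5% of the cases covered. Gene-body islands held 124551 usable cytosines at 71227 CpGs, with a median of 22 reads in siCon and 23 in siH19. By Fisher's exact test (2-sided p below 0.05) and a difference of at least 33 points, 1407 (1.13%) differed, against 0.956% of all such autosomal cytosines. They comprised 755 higher in siH19, against 8982 (0.5%) of all cytosines, and 652 lower, against 8192 (0.456%), in 1046 islands. After adjustment over all 1795680 cytosines 11 of the 124551 had an adjusted p below 0.05, as did 113 (0.00629%) of all of them. For 1096 of the changed cytosines the opposite strand of the same CpG was covered, and it moved the same way in 532 (48.5%, exact binomial interval 45.5 to 51.5). In the others it moved the other way or not at all, and these were not counted apart, so the share does not measure disagreement. The interval takes cytosines as independent, although neighbouring ones share reads.

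The lowest p values with both strands moving one way were found at 6 sites. In an intron of Ahrr, a repressor of the aryl hydrocarbon receptor, the cytosine at chr13:74260057 had 7.55% of 53 reads (2.97 to 17.9) in siCon and 44.0% of 100 (34.7 to 53.8) in siH19 (Fisher's exact test, adjusted p = 0.0301), and the opposite strand went from 10.0% to 34.8%. The island around it was also called, with 12.4% (10.4 to 14.9) and 25.3% (23.3 to 27.4). At C1qtnf4 a cytosine went from 37.5% to 83.9% (Fisher's exact test, adjusted p = 0.0377) with 73.9% and 84.6% on the other strand. At C230014O12Rik one went from 0 of 12 reads, which allows up to 25%, to 72.7% of 44 (Fisher's exact test, adjusted p = 0.0621), with 60.0% and 66.7% on the other strand, so that at both genes the strands disagreed mainly in siCon. The C1qtnf4 island as a whole had 40.9% and 44.5%.

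The other 3 sites were lower in siH19. In a coding-exon island of Zap70, a T-cell receptor kinase gene, a cytosine fell from 66.7% of 24 reads to 11.8% of 51 (Fisher's exact test, adjusted p = 0.0458). Its partner fell from 21.4% of 28 to 0 of 32, which allows up to 9.38%. At Asic2, an acid-sensing ion channel gene, the values were 38.7% and 5.56% (Fisher's exact test, adjusted p = 0.0465), with 44.4% and 21.6% on the other strand. At Gm15738 they were 37.0% of 27 reads and 0 of 58, which allows up to 5.17% (Fisher's exact test, adjusted p = 0.0457), with 9.52% and 3.36% on the other strand. Of the 6 sites, those at Ahrr and Zap70 were the ones where the opposite strand alone also had an unadjusted p below 0.05.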

How the data were processed

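RRBS libraries of 1 siCon and 1 siH19 myotube culture were made by the authors from MspI and TaqI digests. Base calls were made with bcl2fastq 1.8.4 and the build was mm10, per the submitters' processing notes, and reads were aligned by the authors with Bismark in non-directional mode. Removal of duplicate reads is not stated in the sources used here. The deposited tables list, for each CpG cytosine, a score that is the methylated share on a scale of 0 to 1000 and a text field of methylated and total reads. The reads were used here, and the score matched them at every position.

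Islands were computed from GRCm38, in windows of 200 bp, and placed with the GENCODE vM21 basic annotation. Cytosines needed 5 reads in both libraries. Cytosines in restriction sites were left out, because end repair can fill them with unmethylated bases, although the authors trimmed filled-in bases. Keeping them did not add low islands but left fewer, as given below, for a reason that was not tested. Differences are Mantel-Haenszel risk differences with Sato standard errors over cytosines. They compare 2 libraries, not conditions. The method was tested on simulated data with reads drawn independently at each cytosine. That simulation held no shared reads or PCR copies, so it cannot show their effect on the calls. Python 3.11.15, numpy 2.4.6, pandas 2.3.3, scipy 1.17.1 and statsmodels 0.14.6 were used.

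Named islands were, by rule, the 10 largest called differences in each direction (at least 10 cytosines, same direction on both strands), the 5 with most cytosines in each class, the 5 furthest below and 3 furthest above their flanks, up to 3 per gene list, the members in 6 genes the study followed up, and 3 cytosines per direction with the lowest p and 10 reads on the opposite strand. Host genes with many islands were added after their values had been seen. The set of islands, the gene lists and the tests were chosen with earlier results of these data known. Alternatives tried were other minimum numbers of reads, cytosines and points, other class limits, kept restriction sites, removal of repeats, a stricter island definition, single strands, other flank widths and 3 other tests.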

Additional observations from a re-analysis of the deposited data

How the results depend on the processing

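No paired analysis was possible because each group had 1 library. Among the 8298 islands the counts were 932 low, 4098 intermediate, 3268 high, 44 called higher and 38 called lower. With at least 10 cytosines per island (4556 islands) they were 2133 intermediate, 1762 high, 22 higher and 16 lower. Keeping restriction-site cytosines (10809 islands) left 390 low, fewer than the 932 of the 8298 islands. The low share therefore depends strongly on this choice, and the cause was not tested. Leaving out soft-masked cytosines (6757 islands) gave 29 higher and 25 lower. Islands of at least 500 bp with a stricter base composition (1244 islands) gave 303 low, 582 intermediate, 359 high, 6 higher and 8 lower. The plus strand alone gave 2436 intermediate and 1867 high, and the minus strand 2426, 1870 and 24 lower. These settings test fewer or other islands. Fisher's test on summed reads called 137 higher and 123 lower, the test scaled by variation between cytosines 1 and 0, and 1 cytosine per fragment and strand 7 and 6. A minimum of 5 points called 85 and 66, and of 20 points 10 and 11. Class limits of 10% and 90% gave 537 low and 2097 high. Leaving out repeats with at least 10 cytosines, chosen after seeing the data, gave 1608 intermediate, 1623 high, 15 higher and 12 lower. At 10 reads per cytosine, 493 cytosines were higher and 410 lower, and 64 islands were called between strands in siH19. Flanks of 1 kb gave 253 islands below and 237 above, of 5 kb 647 and 1030, and of cytosines with 10 reads 268 and 279. With the comprehensive annotation's start sites, also chosen after seeing the data, 6710 islands remained, with 665 low, 3538 intermediate, 2507 high, 36 higher and 37 lower. The difference of the Gm32916 island turned from -13.09 to 6.33 points at 1 cytosine per fragment and strand, and the cause was not tested. Depth limits a single cytosine more than an island, and with 1 library per group the spread between cultures is unknown.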
